A study of Mus musculus with 9 samples.

Results

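The genes described here are 38 cell cycle genes, 17 that act in S phase and 21 that act in mitosis, listed by symbol and taken from a table of 53458 genes. They were measured by RNA sequencing in conventional type 1 dendritic cells (cDC1) of the mouse peri-pancreatic lymph node, in a series whose title names KPC, mice that develop pancreatic tumours. The 9 libraries fall into 3 stages of 3 libraries each, Healthy, PanIN and Tumor, where PanIN is pancreatic intraepithelial neoplasia, the precursor lesion. The series describes the PanIN and Tumor nodes as draining those lesions. The labels give the stage as the only factor and no genotype, strain, age or sex for any group. They do not say whether libraries came from separate animals or from pooled nodes, so the p-values speak only of the variation among these 9 libraries, part of which may be technical. The question put to the genes is whether the cDC1 of the node differed in proliferation with stage, and how the genes stood against Ccr7 in each library.

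cDC1 are dendritic cells that take up dead cells and cross-present their antigens to CD8 T cells. They come from precursors that seed tissues and still divide there. On maturation, dendritic cells raise Ccr7, the chemokine receptor that brings them to the node, and stop dividing. In a dividing cell, the MCM helicase is loaded at replication origins by Cdc6 and Cdt1, E2F1 and cyclin E open S phase, and cyclin B with Cdk1 drives entry into mitosis. Mitosis is then run by Aurora and Polo kinases, kinetochore proteins and spindle motors, and is ended by the anaphase-promoting complex with Cdc20 and Ube2c.

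Different promoter elements stand behind this timing, and 6 members are shown to let them be compared, 3 S phase genes that carry the strongest relation to Ccr7 or an E2F motif and 3 mitosis genes. The sequences are RefSeq promoters of build GRCm38.p6, the 170 bases before the start of each gene, 5′ to 3′ on the strand of the gene. The windows are Mcm5 chr8:75109339-75109508 on the plus strand, Mcm6 chr1:128359706-128359875 on the minus strand, Rrm1 chr7:102441525-102441694 on the plus strand, Mki67 chr7:135716380-135716549 on the minus strand, Top2a chr11:99024190-99024359 on the minus strand and Kif11 chr19:37376212-37376381 on the plus strand. Capitals mark TTTGAA, the cell cycle homology region, CCAAT, the NF-Y box, and the E2F motifs TTTCCCGC and TTTGGCGC, each on either strand.
Mcm5: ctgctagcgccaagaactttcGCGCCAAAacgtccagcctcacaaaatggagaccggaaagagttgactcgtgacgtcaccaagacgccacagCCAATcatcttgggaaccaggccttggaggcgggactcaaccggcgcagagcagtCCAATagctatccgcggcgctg
Mcm6: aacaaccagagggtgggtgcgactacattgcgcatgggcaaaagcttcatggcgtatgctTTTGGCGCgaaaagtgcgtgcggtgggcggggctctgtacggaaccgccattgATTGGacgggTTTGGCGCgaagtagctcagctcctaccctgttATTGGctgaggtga
Rrm1: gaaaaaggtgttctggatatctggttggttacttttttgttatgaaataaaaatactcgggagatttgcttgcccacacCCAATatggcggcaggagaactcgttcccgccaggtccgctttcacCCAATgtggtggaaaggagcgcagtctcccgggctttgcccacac
Mki67: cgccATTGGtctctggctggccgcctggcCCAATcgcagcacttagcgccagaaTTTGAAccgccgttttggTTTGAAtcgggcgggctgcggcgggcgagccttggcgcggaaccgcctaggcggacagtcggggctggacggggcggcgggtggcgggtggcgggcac
Top2a: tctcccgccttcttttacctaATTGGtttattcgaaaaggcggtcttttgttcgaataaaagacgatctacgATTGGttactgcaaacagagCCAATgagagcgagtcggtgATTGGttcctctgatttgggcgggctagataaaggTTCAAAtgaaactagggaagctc
Kif11: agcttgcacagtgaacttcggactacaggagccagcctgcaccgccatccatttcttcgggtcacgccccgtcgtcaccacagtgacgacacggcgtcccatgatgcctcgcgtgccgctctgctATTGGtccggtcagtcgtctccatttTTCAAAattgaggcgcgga

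Over windows of 300 bases, 250 before and 50 after the start, 31 of the 38 members had a RefSeq promoter. TTTGAA stood in 12 of 17 mitosis promoters (70.6%) and in 1 of 14 S phase promoters (7.14%), against 18.1% of all 27025 promoters. The E2F motifs stood in 0 of 17 mitosis promoters and in 6 of 14 S phase promoters (42.9%), against 1.63% of all promoters. CCAAT was in 88.2% of the mitosis promoters, 64.3% of the S phase promoters and 37.9% of all promoters. Matches on both strands were counted, whether or not they overlapped a match of another motif. Mcm5 and Mcm6 above carry an E2F motif and no TTTGAA, Mki67, Top2a and Kif11 carry TTTGAA and CCAAT, and Rrm1 carries CCAAT alone among the 3 motifs. These matches describe letters in a window and no binding was measured here.

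The libraries held between 32150281 and 68934430 estimated counts. Values below are CPM, counts scaled to a common library size, here by edgeR's trimmed mean of M values (TMM), with transcripts summed to genes. TPM, a transcript level corrected for length and library size, is used where levels are compared between genes. All 38 members passed the filter on low counts, with 24133 genes tested. The cDC1 identity markers were high in every library, with Xcr1 between 249 and 1081 CPM, Clec9a between 177 and 669 CPM and Irf8 between 1025 and 3330 CPM. Ccr7 was 1265, 57.2 and 419 CPM in Healthy 1, 2 and 3, 1518, 970 and 666 in PanIN 1, 2 and 3, and 2602, 1097 and 1584 in Tumor 1, 2 and 3. Healthy 2 was the lowest library for Ccr7 and for the actin-bundling maturation gene Fscn1 (145 CPM, against 1335 to 6798 CPM in the other libraries). Healthy 3 held the largest share of 7SL RNA, 1.78% of counts against 0.263% to 0.765% elsewhere, and the largest share of mitochondrial ribosomal RNA, 2.77% against 0.457% to 1.26%. Healthy 1, PanIN 1 and Tumor 1 share a code in their titles, which the labels do not explain.

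Most of the cell cycle genes were high in the same libraries and low in the same libraries, and the widest gap lay inside the Healthy stage. Healthy 2 was the highest library for 28 of 38 members, and Healthy 3 was the lowest for 28 of 38, where these libraries were highest for 19.6% and lowest for 21.7% of all genes tested. Tumor 2 was highest for another 9 members and PanIN 3 for 1. The lowest library of the remaining members was Tumor 1 for 7, PanIN 2 for 2 and Healthy 1 for 1. These counts are by CPM. By TPM, Healthy 2 was highest for 23 members, PanIN 3 for 10 and Tumor 2 for 5, against 9.34%, 20.1% and 4.14% of all genes. Healthy 3 was lowest by TPM for 28 members, against 20.9% of all genes. The median member was 4.23-fold higher in Healthy 2 than in Healthy 3, a log2 difference of 2.08, and the difference was positive for 37 of 38 members, with cyclin E2 (Ccne2) the exception. Over all genes tested the median of the same difference was -0.31. The gap was 1.20 for the S phase members and 2.43 for the mitosis members. Healthy 3 was the lowest library for all 21 mitosis members. By CPM, Tumor 2 was above Tumor 1, and PanIN 3 above PanIN 2, for all 38 members in each case, with median members 2-fold and 1.62-fold higher. The cDC1 identity markers had the same extremes: the mean log2 CPM of 13 of them was 9.29 in Healthy 2 and 7.75 in Healthy 3, the highest and the lowest of the 9 libraries. The part of these markers, or of the 7SL share of Healthy 3, in the cell cycle values was not tested. In bulk RNA, fewer dividing cells and less of these RNAs per dividing cell cannot be told apart.

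**Figure D1:**
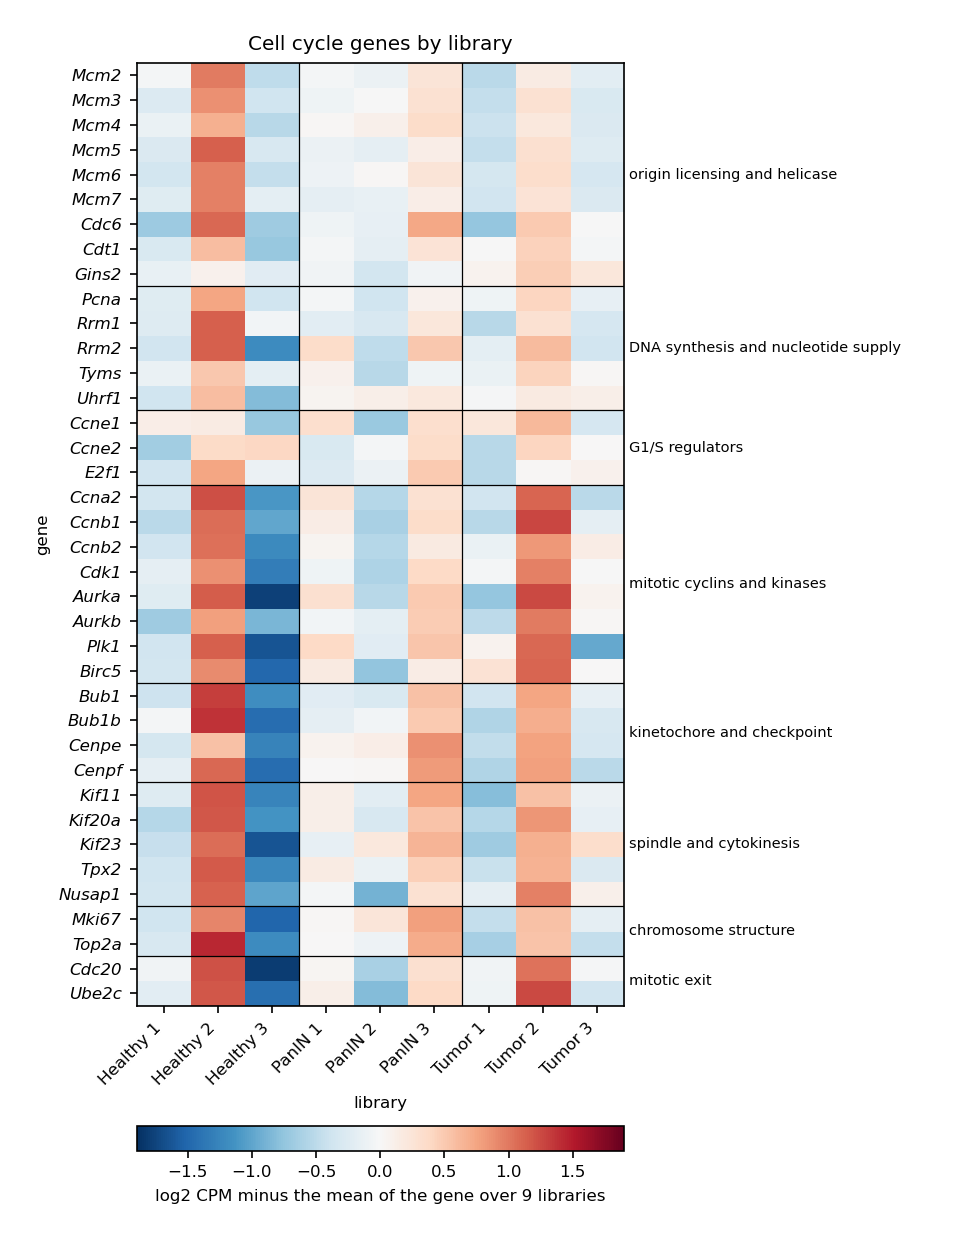
Each row is 1 of the 38 cell cycle genes, grouped by role, and each column is 1 library; colour gives log2 CPM minus the mean of that gene over the 9 libraries. Healthy 2 is the reddest column, with 28 genes at their highest, and Healthy 3 the bluest, with 28 at their lowest and all 21 mitosis genes among them.

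Among the licensing genes, with all transcripts counted, 3 subunits of the MCM helicase were the most abundant. Mcm2 had a mean of 31.9 TPM, Mcm6 30.8 TPM and Mcm3 28.2 TPM over the 9 libraries, and the loader Cdc6 was the least abundant at 2.73 TPM. The share in protein-coding transcripts was 27.6% for Mcm2, 61.7% for Mcm6 and 43.2% for Mcm3, against 86.5% for Mcm5 and 89.1% for Cdc6. This order therefore rests on the assignment to transcripts. Mcm2 was 52.3, 106 and 38.2 CPM in Healthy 1, 2 and 3, 52.1, 49.4 and 63.6 in PanIN 1, 2 and 3, and 37.7, 60 and 46.6 in Tumor 1, 2 and 3. Mcm6 was 68.5, 169 and 63.2 CPM in the Healthy libraries, 80.9, 88.3 and 103 in the PanIN libraries, and 68.8, 110 and 69.3 in the Tumor libraries. Healthy 2 lay above the other 8 libraries for both subunits, and those 8 overlapped across stages. Mcm3 was 60, 131 and 55.3 CPM in the Healthy libraries, 67.9, 71.2 and 87.6 in the PanIN libraries, and 52.5, 87.5 and 58.4 in the Tumor libraries. Mcm5 was 79.4, 210 and 77.4 CPM in Healthy 1, 2 and 3, 88.5, 85 and 105 in PanIN 1, 2 and 3, and 70.2, 118 and 81.1 in Tumor 1, 2 and 3. Mcm7 was 62.1, 141 and 64.1 CPM in the Healthy libraries, 64.3, 66.1 and 79.6 in the PanIN libraries, and 56.2, 87.1 and 60.1 in the Tumor libraries. Healthy 2 was again apart, and Tumor 1 was the lowest library for Mcm3, Mcm5 and Mcm7. Gins2 is a subunit of the GINS complex that joins MCM in the active helicase. By CPM it was the member that varied least, by 1.77-fold between its lowest and highest library. Its values were 30.5, 35.5 and 28.9 CPM in the Healthy libraries, 32.1, 26.2 and 31.9 in the PanIN libraries, and 35.1, 46.3 and 38.9 in the Tumor libraries. By CPM the Tumor libraries thus did not overlap the PanIN libraries. By TPM they did, at 9.59, 10.9 and 15.5 in PanIN 1, 2 and 3 and 10, 16 and 14.8 in Tumor 1, 2 and 3. Mcm4, Cdc6 and Cdt1, which loads MCM with Cdc6, spanned 2.29-fold, 3.53-fold and 2.5-fold between their lowest and highest libraries.

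Of the DNA synthesis genes, the polymerase clamp Pcna was the most abundant member of all, at a mean of 80.1 TPM. Pcna was 123, 243 and 111 CPM in Healthy 1, 2 and 3, 141, 111 and 152 in PanIN 1, 2 and 3, and 136, 192 and 129 in Tumor 1, 2 and 3. Rrm1, the large subunit of the ribonucleotide reductase that makes deoxynucleotides, was 53.6, 139 and 61.2 CPM in the Healthy libraries, 55.4, 51.6 and 73.7 in the PanIN libraries, and 44.3, 77.9 and 50.7 in the Tumor libraries. Rrm2, the small subunit of the same enzyme, was 30.5, 86.2 and 17.1 CPM in the Healthy libraries, 49.9, 27.9 and 55.6 in the PanIN libraries, and 34.4, 59.2 and 30.4 in the Tumor libraries. Both subunits were highest in Healthy 2, but by CPM Healthy 3 was the lowest library for Rrm2 and the fourth highest for Rrm1. By TPM, Healthy 3 was the lowest library for both, at 5.91 for Rrm2 and 12.7 for Rrm1. Thymidylate synthase (Tyms) was 23.7, 37.1 and 22.8 CPM in Healthy 1, 2 and 3, 27.5, 18 and 24.6 in PanIN 1, 2 and 3, and 23.9, 34.9 and 26.5 in Tumor 1, 2 and 3. Uhrf1, which brings maintenance methylation to new DNA, was 47.9, 93.7 and 35.2 CPM in the Healthy libraries, 64.3, 67.4 and 71.2 in the PanIN libraries, and 61.3, 69.7 and 67.1 in the Tumor libraries. Outside Healthy 2 and Healthy 3, Uhrf1 stayed within 47.9 to 71.2 CPM. The G1/S regulators were scarce, at means of 4.18 TPM for E2f1, 3.67 TPM for Ccne1 and 2.67 TPM for Ccne2. E2f1 was 16.5, 35.6 and 19.6 CPM in the Healthy libraries, 17.7, 19.7 and 30 in the PanIN libraries, and 14.7, 21.6 and 22.4 in the Tumor libraries. Ccne1 was 8.28, 8.5 and 4.6 CPM in the Healthy libraries, 9.53, 4.67 and 9.47 in the PanIN libraries, and 8.79, 11.7 and 6.09 in the Tumor libraries. Ccne2 was 4.59, 9.34 and 9.58 CPM in Healthy 1, 2 and 3, 5.94, 7.12 and 9.28 in PanIN 1, 2 and 3, and 5.08, 9.67 and 7.29 in Tumor 1, 2 and 3. By CPM, Ccne1, Ccne2 and Gins2 were the S phase members that were highest in Tumor 2 rather than in Healthy 2. By TPM, Ccne1 and Ccne2 were highest in PanIN 3 and Gins2 in Healthy 2.

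The mitotic cyclins and kinases spanned wider ranges than the licensing genes. Cdk1, the kinase of mitotic entry, had a mean of 29.1 TPM and was 21.2, 43.3 and 9.55 CPM in Healthy 1, 2 and 3, 22.6, 15.9 and 30.9 in PanIN 1, 2 and 3, and 23.2, 46.4 and 23.6 in Tumor 1, 2 and 3. Birc5, the survivin subunit of the chromosomal passenger complex, was 16.2, 38.2 and 7.3 CPM in the Healthy libraries, 23, 12.2 and 22.7 in the PanIN libraries, and 24.8, 44.2 and 20.6 in the Tumor libraries. Aurkb, the kinase of the same complex, was 13.7, 37.4 and 12 CPM in the Healthy libraries, 21, 19.2 and 30.5 in the PanIN libraries, and 15.5, 43 and 22.1 in the Tumor libraries. By CPM, Tumor 2 was the highest library for all 3 and Healthy 3 the lowest. The other 5 genes of this group, Ccna2, Ccnb1, Ccnb2, Aurka and Plk1, ranged from 4.76-fold to 8.13-fold between lowest and highest library, with Aurka, the centrosomal Aurora kinase, at the top.

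Of the kinetochore and checkpoint genes, Bub1b, the BubR1 checkpoint protein, was 25.3, 67.2 and 9.54 CPM in the Healthy libraries, 23.1, 25.1 and 36.4 in the PanIN libraries, and 17.5, 41.7 and 21 in the Tumor libraries. Bub1, the checkpoint kinase, was 8.4, 27.2 and 4.83 CPM in Healthy 1, 2 and 3, 9.45, 8.96 and 16.2 in PanIN 1, 2 and 3, and 8.58, 18.4 and 9.82 in Tumor 1, 2 and 3. Cenpe, the kinetochore motor, was 10.9, 20.3 and 5.71 CPM in the Healthy libraries, 14.4, 15.1 and 25.2 in the PanIN libraries, and 10, 23.5 and 11 in the Tumor libraries. By CPM it was the member whose highest library was PanIN 3. Cenpf, the remaining kinetochore gene, spanned 5.82-fold. Of the spindle genes, the central spindle motor Kif23 had the highest mean, 46.6 TPM, of which 11.8% was in protein-coding transcripts. Kif23 was 27.9, 78.1 and 12.1 CPM in the Healthy libraries, 33.7, 43.1 and 58.9 in the PanIN libraries, and 23.5, 60.2 and 47.2 in the Tumor libraries. Tpx2, which activates Aurora A on the spindle, was 19.3, 56.2 and 10.8 CPM in Healthy 1, 2 and 3, 27.9, 23.1 and 34.4 in PanIN 1, 2 and 3, and 18.7, 39.8 and 20.9 in Tumor 1, 2 and 3. Nusap1, a microtubule-bundling protein, was 16.2, 44.7 and 10.3 CPM in the Healthy libraries, 20, 11 and 25.2 in the PanIN libraries, and 18.3, 39.8 and 22 in the Tumor libraries. By CPM, the 3 spindle genes had Healthy 2 as their highest and Healthy 3 as their lowest library. Kif11 and Kif20a spanned 5.48-fold and 4.99-fold in the same direction.

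Mki67, which coats mitotic chromosomes and is the usual marker of dividing cells, was 68.4, 169 and 31.3 CPM in Healthy 1, 2 and 3, 90.5, 104 and 152 in PanIN 1, 2 and 3, and 64.9, 130 and 78.6 in Tumor 1, 2 and 3. Top2a, the topoisomerase that untangles sister chromatids, was 69.6, 230 and 37.2 CPM in the Healthy libraries, 86.4, 79.7 and 140 in the PanIN libraries, and 55.4, 124 and 62.2 in the Tumor libraries. By CPM, both were highest in Healthy 2, next in PanIN 3 and then in Tumor 2, and lowest in Healthy 3. By TPM, both were highest in PanIN 3, at 12.2 for Mki67 and 46.3 for Top2a, against 9.61 and 43.3 in Healthy 2. Healthy 3 was the lowest library for both by TPM as well. Cdc20, the activator of the anaphase-promoting complex, was 17.4, 42.3 and 5.19 CPM in the Healthy libraries, 18.7, 11.9 and 22.5 in the PanIN libraries, and 17.3, 37.1 and 17.9 in the Tumor libraries. Ube2c, the ubiquitin-conjugating enzyme of that complex, was 20.6, 54.1 and 8.78 CPM in Healthy 1, 2 and 3, 25.7, 13.4 and 31 in PanIN 1, 2 and 3, and 22.4, 56.5 and 18.4 in Tumor 1, 2 and 3. Cdc20 had the widest CPM range of the 38 members, 8.15-fold, between Healthy 2 and Healthy 3. The deposited estimates assign much of some members to transcripts that do not code for protein. For 12 of 38 members, under 50% of the TPM was in protein-coding transcripts, with Gins2 at 5.17%, Kif23 at 11.8%, Tyms at 25.5% and Mcm2 at 27.6%, while 13 members had at least 90%, Mki67 and Kif11 among them. In protein-coding transcripts alone, Healthy 2 was the highest library for 25 members and Healthy 3 the lowest for 24.

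By stage, no cell cycle gene passed the test. In edgeR's quasi-likelihood test over the 3 stages, with Benjamini-Hochberg adjustment over all genes, 0 of 38 members passed an adjusted p of 0.05 and 0 of 38 had an unadjusted p under 0.05 in PanIN against Healthy, Tumor against Healthy, Tumor against PanIN or the test of any stage difference. DESeq2 also called 0 members, with 0 at an unadjusted p under 0.05, in each of these comparisons. Of all genes tested, 0% passed in PanIN against Healthy, 0.0249% in Tumor against Healthy, 0.0124% in Tumor against PanIN and 0.0207% in the test of any difference. The mean log2 CPM of the 38 members was 4.74 ± 0.94 (SD, n = 3) for the Healthy stage, 4.87 ± 0.33 for PanIN and 4.88 ± 0.52 for Tumor. For the S phase members these means were 5.27 ± 0.63, 5.25 ± 0.23 and 5.22 ± 0.33, and for the mitosis members 4.31 ± 1.21, 4.57 ± 0.41 and 4.60 ± 0.68. The differences between stages were smaller than the spread within the Healthy stage in every case.

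In PanIN against Healthy, the members had a median log2 fold change of -0.09, against -0.10 for all genes tested, and 12 of 38 were positive. The values ran from -0.49 for Rrm1 (SE 0.35, adjusted p = 0.685 by edgeR) to 0.57 for Cenpe (SE 0.46, adjusted p = 0.735 by edgeR). Mki67 was at 0.37 (SE 0.49) and Uhrf1 at 0.20 (SE 0.30) on the positive side, with Mcm5 at -0.40 (SE 0.36) and Mcm7 at -0.35 (SE 0.32) on the negative side. In Tumor against Healthy, the median was 0.01, against -0.11 for all genes, with 19 of 38 positive, at -0.16 for the S phase members and 0.16 for the mitosis members. All 8 mitotic cyclins and kinases were positive here, with a median of 0.27 and none past the test, and 7 of 9 licensing genes were negative, with a median of -0.28. The smallest p among the negative members were those of Rrm1 at -0.56 (SE 0.35), Mcm2 at -0.45 (SE 0.34) and Mcm7 at -0.39 (SE 0.32). Among the positive members they were those of Gins2 at 0.34 (SE 0.21), Birc5 at 0.54 (SE 0.50) and Ccne1 at 0.31 (SE 0.40). In Tumor against PanIN the median was -0.03, against -0.05 for all genes. Gins2 stood at 0.42 (SE 0.21, adjusted p = 1 by edgeR), Birc5 at 0.63 (SE 0.51) and Tyms at 0.28 (SE 0.27), with Mcm4 at -0.30 (SE 0.30), Mki67 at -0.34 (SE 0.49) and Cenpe at -0.30 (SE 0.46).

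By CPM, 1 member was found without overlap between stages: Gins2, with its 3 Tumor libraries above its 3 PanIN libraries. These libraries of Gins2 overlapped by TPM. Among all genes tested, 8.33% had the Tumor libraries above and 7.26% below the PanIN libraries by CPM. For Tumor and Healthy libraries, 0 of 38 members were apart, against 9.05% of all genes above and 9.06% below. For PanIN and Healthy libraries, 0 of 38 were apart, against 7.52% above and 4.81% below.

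The direction of the differences from Healthy turned on which Healthy library was left out. Without Healthy 2, all 38 members were higher in PanIN than in Healthy libraries, with a median log2 fold change of 0.69 against -0.03 for all genes, and all 38 were higher in Tumor than in Healthy libraries, with a median of 0.71 against -0.05. In those fits 0 members were called, while 11 and 13 of 38 had an unadjusted p below 0.05, and the smallest adjusted p of edgeR's quasi-likelihood test was 0.0724 and 0.0518, both for Uhrf1. Of all genes, 0.0234% and 8.51% were called. The share of all genes at an unadjusted p below 0.05 is not given here. The 11 and 13 members therefore cannot be read as particular to the cell cycle genes. Mki67 was then at 1.22 (SE 0.38) in PanIN against Healthy and at 0.88 (SE 0.38) in Tumor against Healthy, where it had been at 0.37 and 0.03 with all libraries. Without Healthy 3, 2 of 38 members were positive in PanIN against Healthy and 5 of 38 in Tumor against Healthy, with medians of -0.36 and -0.30. Without both, 35 and 36 of 38 were positive, with medians of 0.39 and 0.44, which then rest on Healthy 1 alone in the Healthy stage. The fold change of Tumor against PanIN does not use the Healthy means, and its median was -0.03 in each of these fits. The Healthy libraries in a fit still entered its scaling and its shared estimate of the spread, and so the SE and p.

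**Figure D2:**
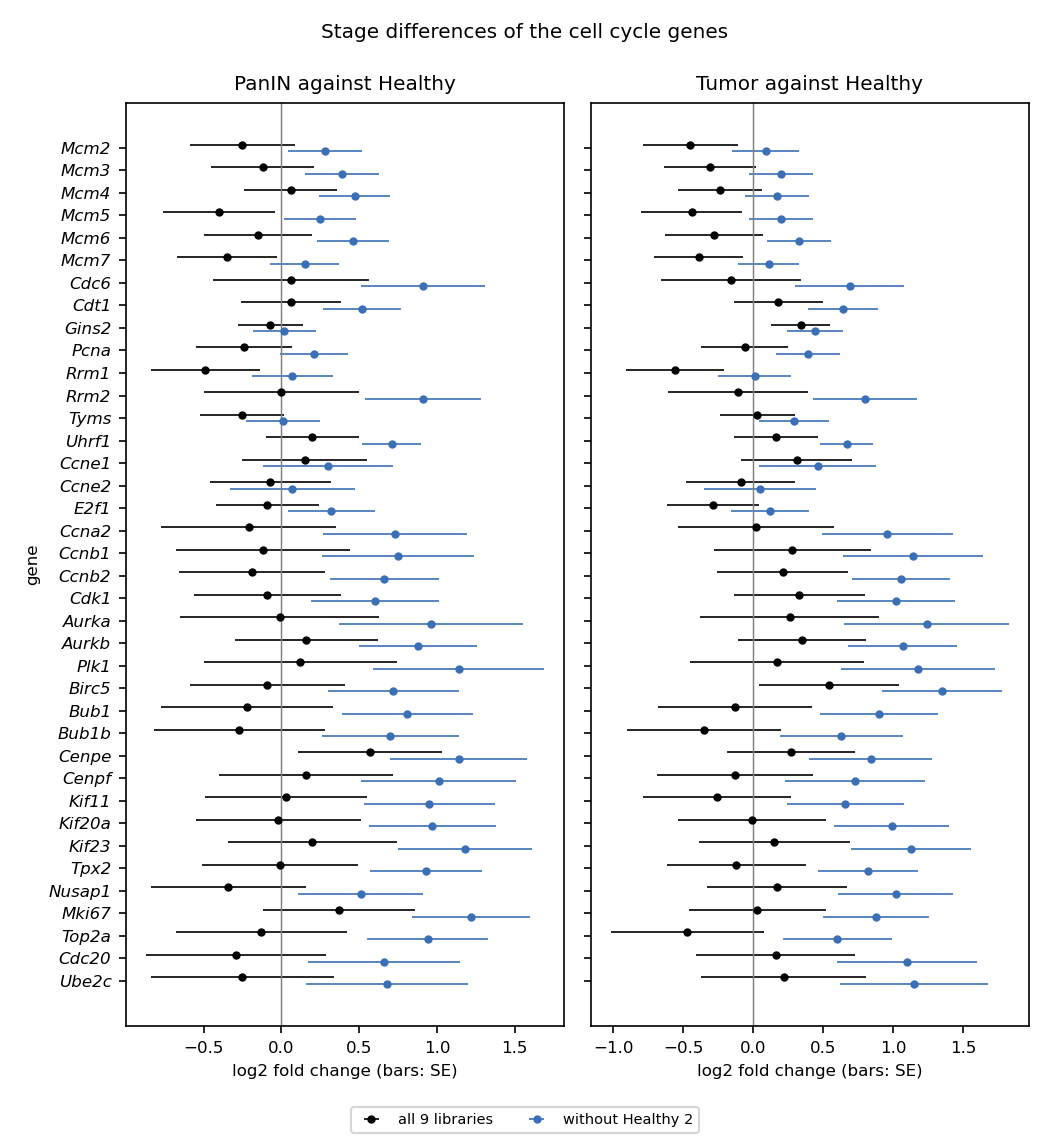
Log2 fold changes with SE for the 38 genes in PanIN against Healthy (left) and Tumor against Healthy (right), with all 9 libraries in black and without Healthy 2 in blue. The black points lie on both sides of 0, with medians of -0.09 and 0.01, and the blue points are all above 0, with medians of 0.69 and 0.71.

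Within the 3 libraries that share a title code, PanIN 1 was above Healthy 1 for 36 of 38 members, with a median log2 difference of 0.29, and Tumor 1 was above Healthy 1 for 17 of 38, with a median of -0.01. In the 6 other libraries, the median differences were 0.07 for PanIN against Healthy (21 of 38 positive) and 0.25 for Tumor against Healthy (27 of 38 positive). On the deposited TPM scale, log2(TPM + 1), the medians for PanIN against Healthy and Tumor against PanIN were 0.32 and -0.25, but the medians of all genes also moved, to 0.11 and -0.16, and 0 members were called by limma on that scale.

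Against Ccr7, the cell cycle genes mostly ran the other way. In an edgeR quasi-likelihood fit on the log2 CPM of Ccr7 over the 9 libraries, 36 of 38 members had a negative slope, where 53.5% of all genes did, with a median of -0.19 log2 units per log2 unit of Ccr7 against -0.02 for all genes. The exceptions were Ccne1 at 0.02 (SE 0.10) and Gins2 at 0.01 (SE 0.06). Rrm1, Mcm5 and Mcm7 passed the test, all with a negative slope, 3 of 38 members against 0.675% of all genes called in that direction. Rrm1 fell by 0.28 log2 units per log2 unit of Ccr7 (SE 0.05, adjusted p = 0.0135), Mcm5 by 0.26 (SE 0.05, adjusted p = 0.0301) and Mcm7 by 0.22 (SE 0.05, adjusted p = 0.0327), by edgeR with Benjamini-Hochberg adjustment. With the shared title code as a term 0 of 38 were called, with a median of -0.17. In all, 15 of 38 had an unadjusted p under 0.05 in the fit without that term. Such counts, here and in the slope fits below, are given without the share of all genes at that unadjusted p. They therefore cannot be read as particular to the members. The median was -0.20 for the S phase members and -0.19 for the mitosis members, and 0 of 21 mitosis members were called, though 5 of 21 had an unadjusted p below 0.05. The slope of Mki67 was -0.18 (SE 0.11), that of Top2a -0.31 (SE 0.10) and that of Kif11 -0.26 (SE 0.11), none past the test.

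With stage as a further term, so that the slope is read among libraries of 1 stage, all 38 members were negative, with a median of -0.36 against 0.07 for all genes. Here 6 of 38 were called, all S phase genes, against 0.675% of all genes called as negative: Rrm1 at -0.34 (SE 0.07), Mcm5 at -0.34 (SE 0.07), Mcm6 at -0.32 (SE 0.07), Mcm7 at -0.29 (SE 0.06), Cdc6 at -0.47 (SE 0.10) and Mcm3 at -0.29 (SE 0.07), with adjusted p from 0.0246 to 0.0498 by edgeR. Of the 38, 34 had an unadjusted p under 0.05. The median was -0.27 for the S phase members and -0.40 for the mitosis members, of which 21 of 21 had an unadjusted p under 0.05 and none was called. Without Healthy 2 alone, 0 of the 38 were called in this fit, against 0% of all genes, the median was -0.11 and 3 had an unadjusted p below 0.05. With the shared title code as a further term, 0 were called as well, with a median of -0.49. The steeper slopes of mitosis genes came with larger standard errors, such as 0.11 for Top2a at -0.46.

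**Figure D3:**
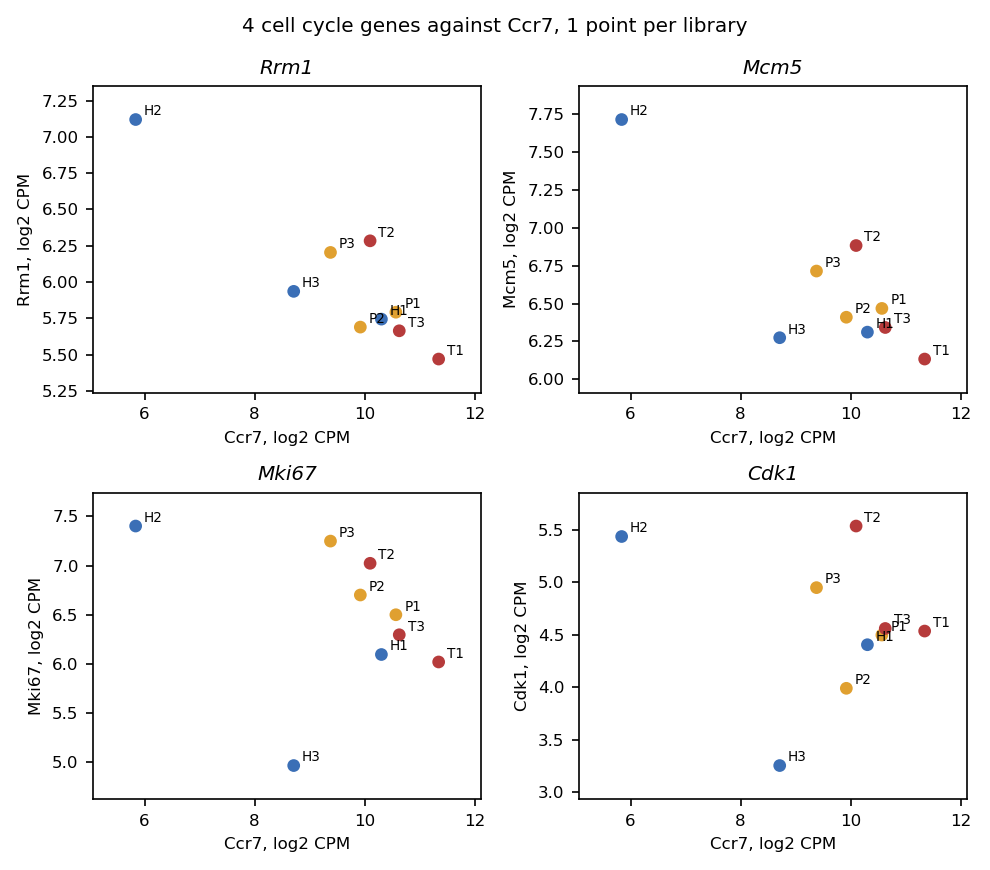
Log2 CPM of Rrm1, Mcm5, Mki67 and Cdk1 against log2 CPM of Ccr7, with 1 point per library (H, Healthy, blue; P, PanIN, orange; T, Tumor, red; digits are the replicate). Healthy 2 lies alone at the low end of Ccr7 with high values of all 4 genes, and Healthy 3 lies low for Mki67 and Cdk1 but not for Rrm1.

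The slopes and their calls depended on which libraries were kept. In the fit without stage, leaving out Healthy 2 alone ended the mostly negative direction. With stage as a term, the median without Healthy 2 was still negative, at -0.11. The values below are from the fit without stage. Without Healthy 2, the median slope was 0.03, 16 of 38 members were negative, 0 had an unadjusted p below 0.05 and 0 were called, against 0.00782% of all genes called as negative. The slope of Rrm1 was then -0.22 (SE 0.12), that of Mcm7 -0.12 (SE 0.11) and that of Mcm5 -0.09 (SE 0.13). Without Healthy 3, 12 of 38 members were called, all negative, against 2.92% of all genes, with a median of -0.22 and 25 with an unadjusted p below 0.05. Top2a was then at -0.34 (SE 0.06) and Kif11 at -0.28 (SE 0.07). Without both, 35 of 38 were negative with a median of -0.38, 17 had an unadjusted p under 0.05 and 0 were called, with Mki67 at -0.64 (SE 0.15, adjusted p = 0.0676 by edgeR, the smallest) and 0.654% of all genes called as negative. The 7 libraries that remain there hold 1 Healthy library. Leaving out Tumor 1 also brought the calls to 0, and leaving out Healthy 1, PanIN 1, PanIN 2 or Tumor 3 left 1 call.

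**Figure D4:**
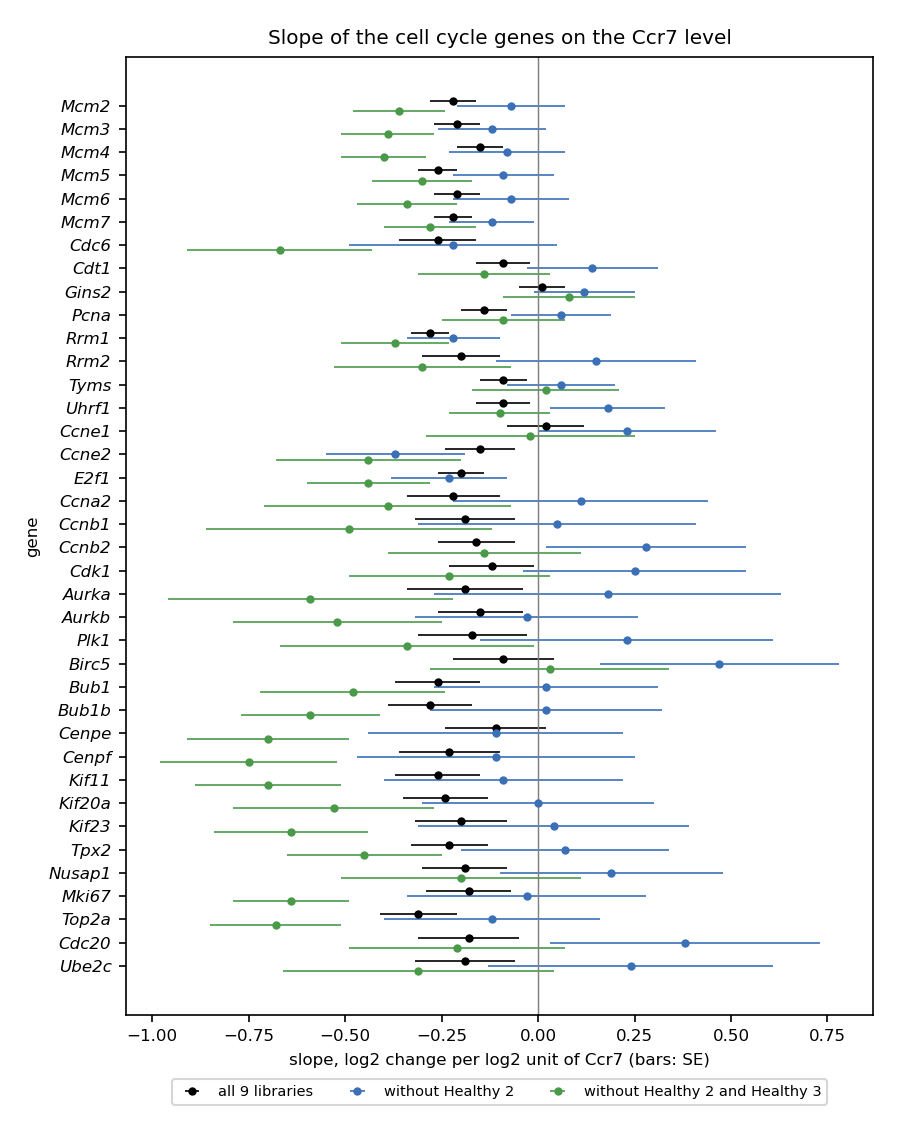
Slope of each of the 38 genes on Ccr7, in log2 units per log2 unit, with SE, for all 9 libraries (black), without Healthy 2 (blue) and without Healthy 2 and Healthy 3 (green). The black points are negative for 36 genes, the blue ones for 16 and the green ones for 35, with medians of -0.19, 0.03 and -0.38.

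Correlations with Ccr7 were computed over the same 9 libraries. Rrm1 had a Pearson r of -0.904 with Ccr7 on the log2 CPM scale (exact permutation p = 0.00628, two-sided, 0.141 after adjustment over all genes) and a Spearman rho of -0.783 (exact permutation p = 0.0172). Without the 2 libraries farthest from the median Ccr7, which were Healthy 2 and Healthy 3, its r was -0.746. Mki67 had r of -0.332 (exact permutation p = 0.359) and rho of -0.467 (exact permutation p = 0.213), and r of -0.841 without those 2 libraries. Over the members the median r was -0.43 and the median rho -0.33. Of the 38, 36 had a negative r, 7 had an unadjusted exact permutation p under 0.05 for r and 0 passed after adjustment. Of 24132 genes tested, 12064 had a negative r, 3648 had an unadjusted exact permutation p under 0.05 and 451 passed after adjustment. The 7 members therefore cannot be read as particular to the cell cycle genes. The median r of the members was -0.59 without the 2 farthest libraries, with 34 of 38 negative. It was -0.39 in the 6 libraries that do not carry the title code. On log2(TPM + 1) over the 9 libraries, Rrm1 had r of -0.559 (exact permutation p = 0.103) and rho of -0.467 (exact permutation p = 0.213). The median r of the members on that scale was -0.36, against 0.07 for all genes. There 3 members had an unadjusted exact permutation p under 0.05, as had 2241 of 24132 genes, and 0 members passed after adjustment.

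Xcr1, the chemokine receptor that marks cDC1, was set in place of Ccr7 after the data were seen. Its own slope on Ccr7 was -0.31 (SE 0.08) and did not pass (adjusted p = 0.0805 by edgeR). All 38 members had a positive slope on it, with a median of 0.77, and 20 of 38 were called, against 3.19% of all genes called as positive. With stage as a term the median was 0.90 and 34 of 38 were called, against 8.43% of all genes. Without Healthy 2 all 38 were still positive, with a median of 0.72, and 25 had an unadjusted p under 0.05, but 0 were called, as was 0% of all genes. This slope used the same libraries and is a description of how the genes stood to a cDC1 marker.

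The wider cell cycle lists held further genes of each phase. Of 36 other replication genes, 32 had a negative slope on Ccr7, with a median of -0.12. Of these 36, 1 was called, against 0.675% of all genes called as negative. It was Pola1, the catalytic subunit of DNA polymerase alpha, at -0.33 (SE 0.06, adjusted p = 0.0201 by edgeR). Pola1 was 17.8, 41.9 and 19.1 CPM in Healthy 1, 2 and 3, 15.7, 15.4 and 26 in PanIN 1, 2 and 3, and 11, 19.6 and 11.2 in Tumor 1, 2 and 3. Of 55 other mitosis genes, 51 had a negative slope, with a median of -0.17. Of these 55, 0 were called and 12 had an unadjusted p below 0.05. With stage as a term 2 of the 55 were called, against 0.675% of all genes called as negative. They were the chromokinesin Kif4 at -0.47 (SE 0.11, adjusted p = 0.0493 by edgeR) and the condensin subunit Ncapd2 at -0.36 (SE 0.08, adjusted p = 0.0484 by edgeR). Without Healthy 2, 0% of all genes were called as negative in that fit. In the fit without stage, their slopes without Healthy 2 were -0.20 and -0.09, with adjusted p of 0.721 and 0.866 by edgeR. Of 22 transcription control genes, among them E2F and DREAM complex genes, 18 had a negative slope and 0 were called, and 1 had an unadjusted p below 0.05. The slope of Pola1 without Healthy 2 was -0.40 with an adjusted p of 0.273 by edgeR. By stage, 0 genes of these 3 lists were called in any contrast.

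The brakes of the cycle included genes that ran with Ccr7. Of 8 cyclin-dependent kinase inhibitors, 2 were called, both with a positive slope, against 1.66% of all genes called in that direction. Cdkn1a, which encodes p21, rose by 0.44 per log2 unit of Ccr7 (SE 0.06, adjusted p = 0.00264 by edgeR), and Cdkn2b, which encodes p15, by 0.69 (SE 0.10, adjusted p = 0.00262 by edgeR). Cdkn1a was 83, 21 and 45.3 CPM in Healthy 1, 2 and 3, 81, 72.5 and 49.3 in PanIN 1, 2 and 3, and 86.7, 82.4 and 112 in Tumor 1, 2 and 3. Cdkn2b was 21.3, 1.78 and 14.2 CPM in the Healthy libraries, 19.4, 16.3 and 15.4 in the PanIN libraries, and 27.7, 19.6 and 24.6 in the Tumor libraries. Both were lowest in Healthy 2, and for both the Tumor libraries lay above the PanIN libraries, as 8.33% of all genes did, while the Healthy libraries spanned the PanIN values. Tumor against PanIN was at 0.47 (SE 0.39) for Cdkn1a and 0.50 (SE 0.58) for Cdkn2b, and neither passed. Without Healthy 2 the slopes were 0.48 and 0.39 and the adjusted p of edgeR 0.134 and 0.183. Cdkn2c, which encodes p18, was 10.7, 31 and 9.28 CPM in the Healthy libraries, 10.3, 12 and 16.3 in the PanIN libraries, and 14.7, 25.2 and 10.9 in the Tumor libraries, with a slope of -0.21 (SE 0.09) that did not pass. Cdkn1b, which encodes p27, had a slope of 0.11 (SE 0.08). Of the D cyclins that start G1, Ccnd2 was called with a slope of 0.35 (SE 0.07, adjusted p = 0.0184 by edgeR, 0.23 without Healthy 2), while Ccnd1 was at -0.21 (SE 0.08) and Ccnd3 at 0.13 (SE 0.08). Of 9 anti-proliferative genes 0 were called, with 3 at an unadjusted p under 0.05. Btg1 had a slope of 0.27 (SE 0.07, adjusted p = 0.0738 by edgeR), which passed without Healthy 2 at 0.61 (adjusted p = 0.029).

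**Figure D5:**
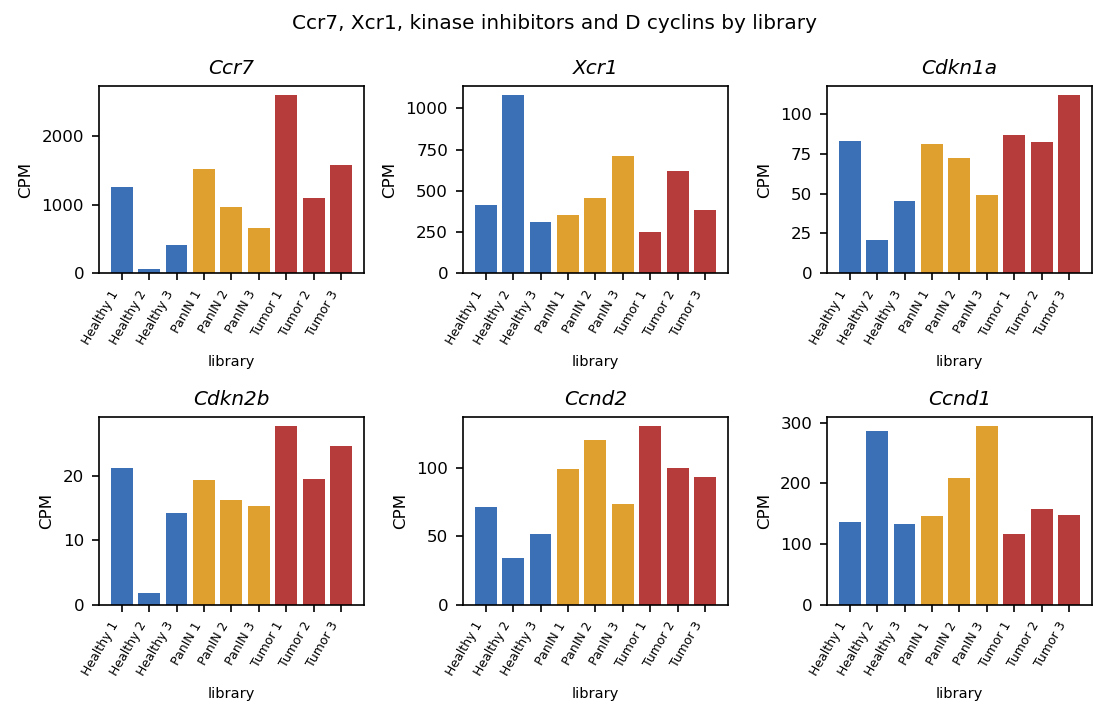
CPM per library of Ccr7, Xcr1, the kinase inhibitors Cdkn1a and Cdkn2b and the D cyclins Ccnd2 and Ccnd1, with 1 bar per library and stages in colour. Healthy 2 has the lowest bar for Ccr7, Cdkn1a, Cdkn2b and Ccnd2 and the highest for Xcr1.

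Markers of other dividing cells of a node were read beside these values. The summed CPM of 18 T cell markers was 210 in Healthy 2, 235 in Healthy 3 and 337 in Tumor 2, against 638 in Healthy 1, 604 in PanIN 1 and 988 in Tumor 1. It was 403 in PanIN 2, 161 in PanIN 3 and 215 in Tumor 3. All 18 T cell markers had a positive slope on Ccr7, where 46.5% of all genes did, and 1 was called, against the 1.66% of all genes called as positive. The sum of 18 B cell markers was 350, 563 and 271 CPM in the Healthy libraries, 400, 1042 and 403 in the PanIN libraries, and 514, 425 and 394 in the Tumor libraries, so that Healthy 2 and Healthy 3 were the extremes of the Healthy stage here too. Their mean log2 CPM was lower in Healthy 2 (1.81) than in Healthy 3 (2.03). The sum of 10 germinal centre genes was 690 CPM in Healthy 2 and 402 CPM in Healthy 3, with 650 to 717 CPM in PanIN and 830 to 872 CPM in Tumor libraries. The genes of this list differed: Gcsam was 432 CPM in Healthy 2, its highest value, and 120 CPM in Healthy 3, while Mef2b reached at most 0.852 CPM and Rgs13 at most 0.413 CPM in any library. The sum of 9 dendritic cell precursor markers was 1368 CPM in Healthy 2 and 604 CPM in Healthy 3, its highest and lowest values, with 886 to 1125 CPM in PanIN and 823 to 940 CPM in Tumor libraries. Their mean log2 CPM, which weights each marker alike, was 4.09 in Healthy 2 and 4.23 in Healthy 3, with PanIN 2 highest at 4.84 and Tumor 3 lowest at 3.50. Kit, an abundant gene among these 9, was 175, 459 and 143 CPM in Healthy 1, 2 and 3, 193, 264 and 246 in PanIN 1, 2 and 3, and 147, 199 and 189 in Tumor 1, 2 and 3, with a slope on Ccr7 of -0.25 (SE 0.06) that did not pass. The part of T, B, germinal centre or precursor cells in the cell cycle values was not tested.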

How the data were processed

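RNA of peri-pancreatic lymph node cDC1 was sequenced in 9 libraries, 3 per stage. Per the submitters' processing notes, Salmon and the mm10 build were used; per the labels' protocols, the library kit was directional. No version or setting is stated there. The deposited values are named after sailfish instead of Salmon, and the labels do not say which was used. The authors deposited, per transcript, estimated counts, which are not whole numbers, and TPM. Of 136288 transcripts, 136176 matched GENCODE M21 and were summed to 53458 genes, keeping at least 99.963% of the counts. These sums were rounded and tested with edgeR 4.0.16 (R 4.3.3; TMM, factors 0.83 to 1.19; filterByExpr, minimum count 10; quasi-likelihood test) on the whole table, with Benjamini-Hochberg adjustment over all genes tested and a threshold of 0.05. Stage was the only factor, or the slope on the log2 CPM of Ccr7 (prior count 2) with and without stage; Ccr7 itself was left out of the slope counts. DESeq2 1.42.0 and limma 3.58.1 on log2(TPM + 1) and log2(TPM + 0.1) were alternatives, and the steps were tested on simulated data. Depth ran from 32150281 to 68934430 counts, and the biological coefficient of variation was 56.5% in the stage fit. Correlations used exact permutation over all orders of the libraries.

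The members and lists were chosen with earlier results of these data known. Named members were the 3 with the highest mean TPM in the licensing, mitotic cyclin, kinetochore and spindle groups, all members of the other groups, and, for each comparison and direction, 3 members of smallest p. From the other cell cycle lists, genes with the smallest p for the slope or for any stage difference were named. Other genes named as examples were chosen after their values were seen. Promoters came from RefSeq (GRCm38.p6); Kif20a, Ccne2, Aurkb, Mcm4, Gins2, Ccna2 and Tpx2 had no entry.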

Additional observations from a re-analysis of the deposited data

How the results depend on the processing

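The count of 0 members called in each stage comparison was the same in all alternatives run, DESeq2, limma on TPM, other filters and each library left out among them. Leaving out 1 library at a time, the median log2 fold change of the members ran from -0.36 to 0.69 in PanIN against Healthy, from -0.45 to 0.71 in Tumor against Healthy and from -0.35 to 0.18 in Tumor against PanIN. With a term for Ccr7 the first 2 medians were 0.59 and 0.94. The count of members called for the slope on Ccr7 ran from 0 to 12 and the median slope from -0.22 to 0.03 with 1 library left out. With stage as a term they ran from 0 to 34 and from -0.68 to -0.11. Called members, without and with stage, were 6 and 25 by DESeq2, 0 and 0 by limma on log2(TPM + 1) and on log2(TPM + 0.1), 0 and 0 when the shared title code was a term, and 0 and 33 in the 6 libraries outside that code. They were 0 and 0 without Healthy 2 and Healthy 3, with medians of -0.38 and -0.55. With stage, 31 were called with no filter on low counts and 17 with Fscn1 in place of Ccr7. The share of all genes called is not given for DESeq2, no filter, Fscn1, the 6 libraries or the 34 with 1 library left out. Those counts therefore cannot be read as particular to the members. The median slope with stage was -0.49 with the title code term and -0.76 in the 6 libraries outside that code. With Xcr1 in place of Ccr7, an alternative chosen after seeing the data, 20 and 34 were called, with medians of 0.77 and 0.90. Leaving out Healthy 2 as well, 0 and 0 were called, with medians of 0.72 and 0.74. The sign change with Xcr1 comes from the other gene on the axis. For the rest, the cause was not tested. The labels carry no replicate numbers to pair libraries by, and the shared title code, with 1 library per stage, was the block that could be fitted. The 6 libraries outside that code each have a code of their own and were entered as 1 level. Within each stage, Ccr7 was highest in the library with the shared code, at 1265 CPM in Healthy 1, 1518 in PanIN 1 and 2602 in Tumor 1. This term and the slope within a stage therefore overlap in part. The size of stage difference that 3 libraries per stage could show, at a biological coefficient of variation of 56.5%, was not tested for these genes.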

Other observations

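Among genes that set the pace of G1 rather than carry out S phase or mitosis, several had higher values in both PanIN and Tumor than in Healthy libraries without passing edgeR's test. Ccnd3, cyclin D3, was 139, 149 and 80.9 CPM in the Healthy libraries, 191, 171 and 177 in the PanIN libraries, and 248, 198 and 203 in the Tumor libraries. The 3 stages did not overlap for this gene, where 7.52% of all genes had the PanIN libraries above Healthy, 9.05% the Tumor libraries above Healthy and 8.33% the Tumor libraries above PanIN. Its values gave log2 fold changes of 0.55 (SE 0.25) for PanIN and 0.82 (SE 0.25) for Tumor against Healthy and an adjusted p of 0.308 for any stage difference. Lin37, a subunit of the DREAM complex that represses cell cycle genes in resting cells, was 16.5, 17.8 and 14.6 CPM in the Healthy libraries, 24.9, 23.4 and 20.3 in the PanIN libraries, and 28.5, 22.6 and 24.4 in the Tumor libraries. Its adjusted p for any stage difference was 0.347 by edgeR. Myb, a transcription factor of immature blood cells, was at 7.88, 4.28 and 3.9 CPM for Healthy, at 12.3, 9.94 and 8.47 for PanIN and at 12.2, 8.03 and 11 for Tumor libraries, with an adjusted p of 0.338 by edgeR for any stage difference. Cdkn1b, which encodes the kinase inhibitor p27, was at 64.5, 57.5 and 38.3 CPM for Healthy, at 82.8, 85.1 and 115 for PanIN and at 86.7, 69.5 and 70.2 for Tumor libraries, all 6 of the latter above the 3 Healthy libraries, as 7.52% of all genes were for PanIN and 9.05% for Tumor. Ccnd2, cyclin D2, was at 70.9, 34.1 and 51.9 CPM for Healthy, at 98.9, 120 and 73.3 for PanIN and at 130, 100 and 92.9 for Tumor libraries. Its PanIN and Tumor libraries also lay above the Healthy libraries, and its adjusted p for any stage difference was 0.295 by edgeR. These genes were chosen among those of small p and the lists hold no called gene by stage.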
